A study of Mus musculus with 6 samples.

Results

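The *Meis*, *Pknox*, *Pbx* and *Tgif* genes encode homeodomain transcription factors of the TALE class, named after a loop extension of 3 amino acids between the first and second helices of the DNA-binding homeodomain. Members were taken by name from a fixed list (*Meis1*, *Meis2*, *Meis3*, *Pknox1*, *Pknox2*, *Pbx2*, *Pbx3*, *Tgif1* and *Tgif2*). All 9 listed genes were among the 15168 genes of the deposited table, and all 9 passed the filter on low values. Bulk RNA-seq was performed on the LGE (lateral ganglionic eminence, the embryonic source of striatal medium spiny neurons, MSNs) at E16.5, with 3 libraries in each of 2 groups. The controls were *Dlx5/6-CIE* embryos, which carry the *Dlx5/6-Cre-IRES-EGFP* transgene and so also express Cre in LGE progenitors. The other group, *Dlx5/6-CIE; Rosa-Sp9-OE/+*, carried the same transgene and 1 copy of a *Rosa26* knock-in in which the CAG promoter drives the *Sp9* coding sequence once Cre has removed a LacZ-STOP cassette (the overexpression group). Controls were littermates on a mixed background, and the overexpression is limited to Cre-expressing cells and their descendants. The labels do not say whether replicates were separate embryos, so p-values measure only the spread between these libraries. The comparison asks whether forced *Sp9* expression altered the levels of these genes in the LGE.

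PBX and MEIS proteins bind each other and share DNA sites with HOX and other homeodomain proteins, and the binding of MEIS or PREP (the protein name of PKNOX) factors helps to keep PBX proteins in the nucleus. MEIS2 is expressed in the developing striatum, where it acts in the differentiation of LGE-derived neurons and shares enhancers with DLX factors. TGIF proteins are TALE repressors that bind SMAD proteins of the TGF-beta pathway and recruit corepressors, and in humans mutations of *TGIF1* are known from holoprosencephaly.

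The part of each homeobox that gives the class its name is printed so that the subfamilies can be read against each other. Each line holds 27 bases of coding sequence, 5′ to 3′, of a GENCODE M21 transcript on GRCm38 (mm10), and capitals mark the 3 codons of the loop extension.
Meis1: ctaacacacCCTTACCCTtctgaagaa
Meis2: ctcacacacCCGTACCCTtcagaagaa
Meis3: ctctcgcacCCGTACCCTtcagaagag
Pknox1: atagggcatCCCTACCCAacagaggat
Pknox2: ctcatgcacCCCTATCCCactgaagat
Pbx2: ctgagcaacCCTTACCCTagtgaggag
Pbx3: ctcagcaacCCCTACCCCagtgaagaa
Tgif1: agatacaacGCCTATCCCtcagagcaa
Tgif2: cgctacaacGCCTACCCCtcagagcag

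The exon structure around the loop followed the subfamilies. In the 5 *Meis* and *Pknox* genes the stretch crossed an exon junction after its base 6, between exons 10 and 11 in *Pknox2* and between exons 8 and 9 in the other 4. In *Pbx2* (chr17:34594646-34594672, plus strand) and *Pbx3* (chr2:34204825-34204851, minus strand) it lay within exon 5 of 9. In *Tgif1* (chr17:70846217-70846243, minus strand) and *Tgif2* (chr2:156844310-156844336, plus strand) it lay within exon 2 of 3. Over the 189 bases of the homeobox compared, identity was highest between *Meis1* and *Meis3* (85.7%), *Meis1* and *Meis2* (85.2%) and *Meis2* and *Meis3* (83.6%). It was 81.0% for *Pbx2* and *Pbx3*, 76.7% for *Pknox1* and *Pknox2*, 74.6% for *Tgif1* and *Tgif2*, and 43.4% for *Pbx3* and *Tgif2*, the lowest of the 36 pairs. The longest exact run shared by the transcripts of any pair was 32 bases, between *Meis1* and *Meis2*, and 0 of the 36 pairs shared 60 bases or more.

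Some members overlap other genes in the annotation, and no source used here says whether the counting took the strand of the reads into account. *Tgif2* shares exonic positions with 5430405H02Rik on the opposite strand (11.1 CPM, mean of 6 libraries) and with Gm37790 (2.15 CPM). CPM here are reads scaled to an effective library size. *Pbx2* shares them with *Gpsm3* on the same strand (1.55 CPM), and *Meis1* with Gm37818 on the same strand (3.08 CPM). How reads in those stretches were divided was not tested.

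The number of reads in the listed genes ranged from 19410365 to 25126847 per library. In the deposited values 1 read was worth 0.0391 to 0.0501 CPM, which corresponds to effective library sizes of 19947647 to 25595734. For overexpression replicate 3 this size (22097010) was below its 22420424 reads in the listed genes. The deposited CPM were thus not scaled by read totals alone. *Sp9* had 129.5, 146.6 and 169.9 CPM in control replicates 1 to 3 and 177.9, 268.0 and 304.6 CPM in overexpression replicates 1 to 3, without overlap between the groups (limma log2 fold change 0.72, SE 0.19, adjusted p = 0.788). The sexes were not balanced between the groups: *Xist*, the RNA that silences 1 X chromosome in females, reached 2227 CPM in control replicate 1 and 2191 CPM in control replicate 2, against 1.37 to 2.35 CPM in the other 4 libraries. The tissue label was met by high levels of *Dlx1* (694 to 902 CPM), a transcription factor of ganglionic eminence progenitors, and *Bcl11b* (555 to 946 CPM), a transcription factor of MSNs.

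Levels of the 9 genes were first ordered per kilobase (kb) of annotated exon. *Meis2* stood alone at the top with 65.0 CPM per kb (range 55.5 to 82.0 over 6 libraries), and *Tgif1* at the bottom with 0.774 CPM per kb (0.677 to 1.00). Between them, *Meis3* (23.05), *Pbx3* (20.3), *Pbx2* (19.1) and *Tgif2* (16.6 CPM per kb) formed a group in which each neighbour's range overlapped the next. *Pknox1* (8.65), *Meis1* (6.17) and *Pknox2* (4.13 CPM per kb) followed, each below the range of the gene before it. The length of 1 principal transcript was also used in place of all annotated exons, a choice made after seeing the data. *Meis2* then remained the highest (278.6 CPM per kb) and *Tgif1* the lowest (2.67). *Pbx3* (47.9) came before *Meis3* (42.3), and *Meis1* (19.4) before *Pknox1* (14.1 CPM per kb). The gaps between ranges also moved. *Meis1* (17.9 to 20.5) now overlapped *Tgif2* (19.5 to 26.9), and *Pknox2* (10.5 to 14.0) overlapped *Pknox1* (12.8 to 15.4). *Pbx3* (34.4 to 61.2) no longer overlapped *Pbx2* (21.7 to 23.2 CPM per kb).

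**Figure D1:**
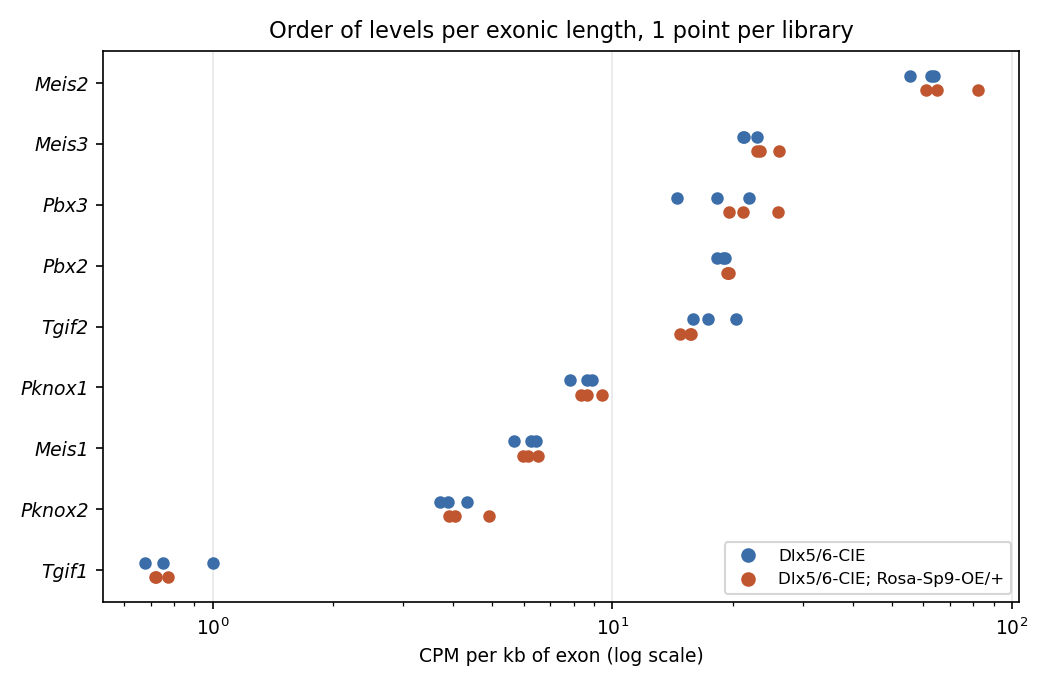
Level of each TALE gene in CPM per kb of annotated exon on a log axis, with 1 point per library, blue for *Dlx5/6-CIE* and red for *Dlx5/6-CIE; Rosa-Sp9-OE/+*. *Meis2* lies between 55.5 and 82.0 in the 6 libraries, above every point of the other genes, and *Tgif1* between 0.677 and 1.00, below them.

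No TALE gene passed an adjusted p of 0.05 between the groups: 0 of 9 were called, where limma called 0.0265% of all 15102 genes tested (4 genes). edgeR and DESeq2 on the recovered reads also called 0 of 9, where they called 0.0331% and 0.225% of all genes. By value 7 of the 9 were higher and 2 lower in the overexpression group, and 50.2% of all genes were higher. The median log2 fold change was 0.0599 over the 9 genes and 0.00052 over all genes, and the members ranged from -0.21 (*Tgif2*) to 0.29 (*Pbx3*). At an unadjusted p of 0.05, limma, edgeR and DESeq2 each passed 1 of 9, *Tgif2*, against 5.52% (2.68% higher and 2.84% lower), 5.27% and 4.68% of all genes. The half-width of the 95% interval ran from 0.11 (*Pbx2*) to 0.38 (*Tgif1*) on the log2 scale, so smaller differences could not be resolved with these libraries.

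The groups did not overlap for 3 of the 9 genes, *Meis3* and *Pbx2* (higher) and *Tgif2* (lower), beside 11.2% of all genes, 5.46% higher and 5.73% lower. With 1 library left out, which can only add to such a count, it was 3 or 4 of 9, beside at most 34.2% of all genes, and without overexpression replicate 3 it was 3, beside 17.4% (a check added after the data were seen). In bulk tissue, fewer cells of a type and less RNA per cell cannot be told apart, for these and the other values below.

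**Figure D2:**
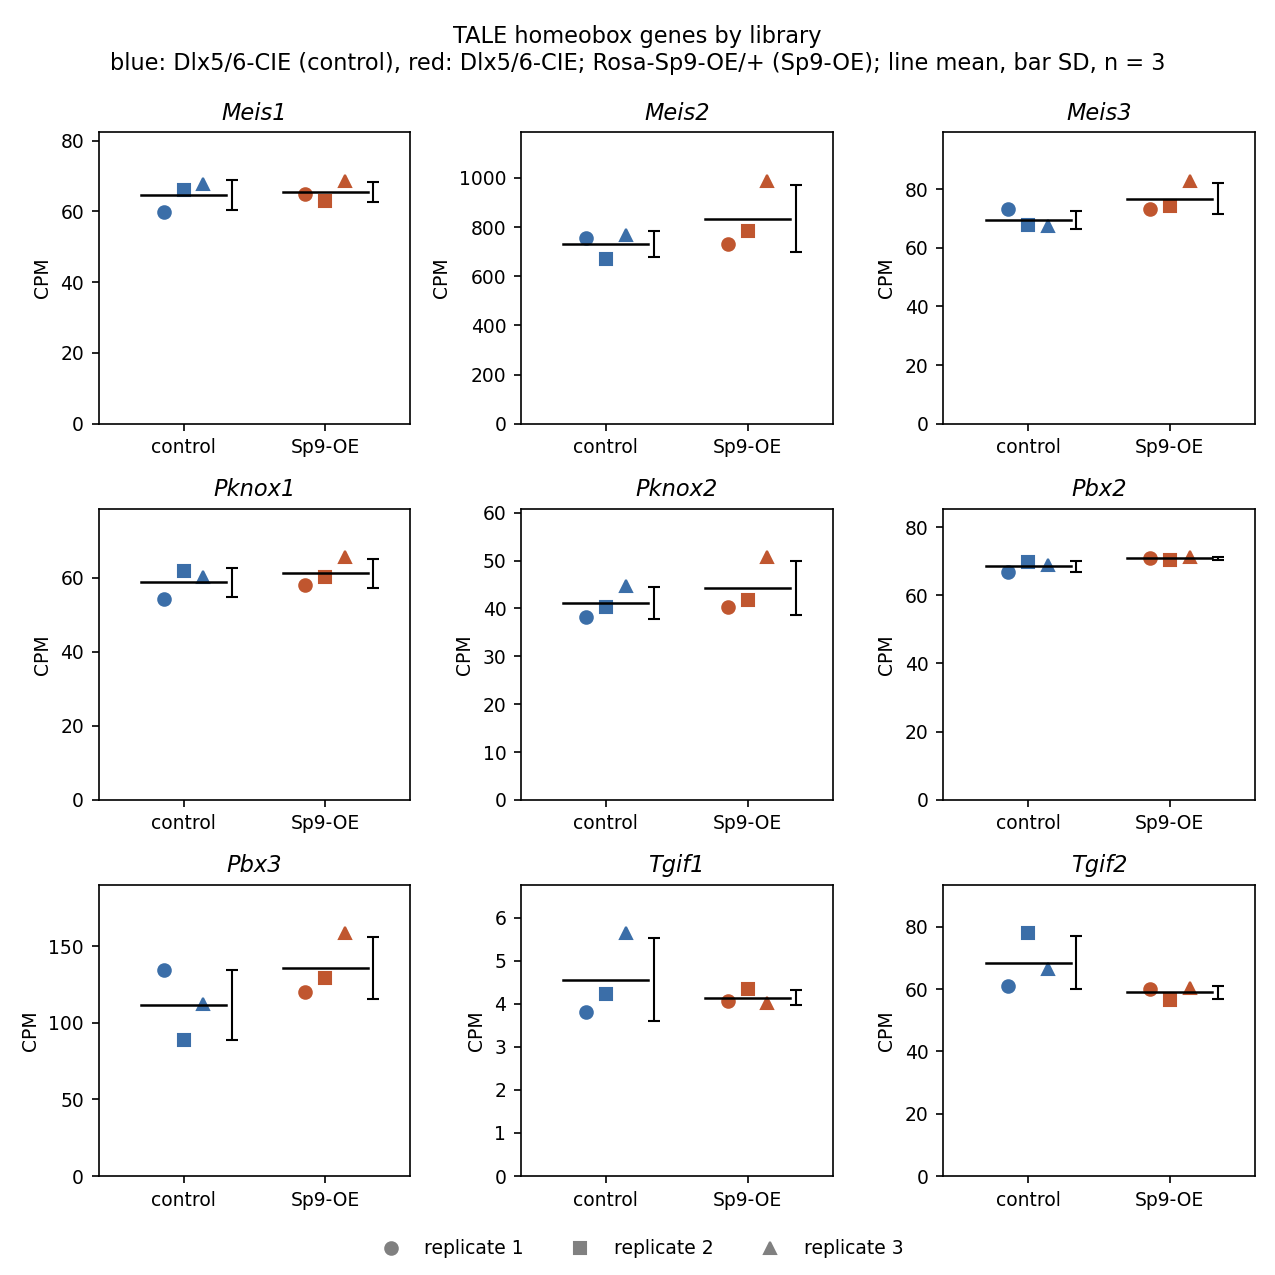
CPM of each TALE gene in every library, with each panel's axis starting at 0, the group mean as a line, the SD as a bar (n = 3 per group) and replicates by marker shape. The groups do not overlap for *Meis3*, *Pbx2* and *Tgif2*, and overexpression replicate 3 is the highest library for 7 of the 9 genes.

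Among the MEIS genes, *Meis2* was the most abundant and the most variable. *Meis2* (ENSMUSG00000027210, chr2:115863064-116065839, minus strand) had 755.4, 668.7 and 769.6 CPM in the controls and 732.5, 783.6 and 987.6 CPM in the overexpression libraries. Overexpression replicate 3 was well above every other library, overexpression replicate 1 lay within the control range, and the groups overlapped. The means were 731 ± 54.6 and 835 ± 135 CPM (SD, n = 3 each), 14.1% higher, and the limma log2 fold change of 0.18 (SE 0.11, 95% interval -0.08 to 0.44) had an adjusted p of 0.789. Without overexpression replicate 3 it was 0.0538. Each library held 13442 to 21824 *Meis2* reads, so the counting error of a library was small beside this spread.

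*Meis1*, whose product is a PBX cofactor best known from blood cell development and leukaemia, was nearly level between the groups. *Meis1* (ENSMUSG00000020160, chr11:18879817-19018985, minus strand) had 59.8, 65.9 and 67.8 CPM in the controls and 65.0, 62.8 and 68.6 CPM in the overexpression libraries, with control replicate 1 lowest and the groups overlapping. The means were 64.5 ± 4.22 and 65.5 ± 2.92 CPM (SD, n = 3 each), and limma gave a log2 fold change of 0.0223 (SE 0.0671, 95% interval -0.13 to 0.18, adjusted p = 0.945). Its sign turned in 4 of the 16 alternatives, among them the fit without control replicate 1 (-0.0314) and that without overexpression replicate 3 (-0.0117).

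*Meis3*, the least studied of the MEIS genes, was slightly higher in every overexpression library than in any control. *Meis3* (ENSMUSG00000041420, chr7:16175090-16186504, plus strand) had 73.1, 67.9 and 67.4 CPM in the controls and 73.2, 74.3 and 82.9 CPM in the overexpression libraries. The groups were separated only narrowly, by 73.141 CPM in control replicate 1 and 73.215 CPM in overexpression replicate 1. The means of 69.5 ± 3.18 and 76.8 ± 5.29 CPM (SD, n = 3 each) differed by 10.5%. The limma log2 fold change was 0.14 (SE 0.07, 95% interval -0.01 to 0.30, adjusted p = 0.788). Over the 16 alternatives the log2 fold change stayed between 0.09 and 0.19 and the adjusted p between 0.347 and 1.

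The PKNOX genes, whose products pair with PBX proteins as MEIS factors do, overlapped between the groups. *Pknox1* (ENSMUSG00000006705, chr17:31564734-31607693, plus strand) had 54.2, 61.7 and 60.1 CPM in the controls and 58.0, 60.04 and 65.5 CPM in the overexpression libraries, with a limma log2 fold change of 0.0599 (SE 0.07, 95% interval -0.11 to 0.23, adjusted p = 0.857). *Pknox2* (ENSMUSG00000035934, chr9:36890982-37147407, minus strand) had 38.3, 40.2 and 44.8 CPM in the controls and 40.3, 41.9 and 50.7 CPM in the overexpression libraries, with a limma log2 fold change of 0.10 (SE 0.10, 95% interval -0.13 to 0.34, adjusted p = 0.827). In both genes overexpression replicate 3 was highest and control replicate 1 lowest. Without overexpression replicate 3 their log2 fold changes were 0.01 and 0.0028.

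The PBX genes differed in how much they varied. *Pbx2*, a ubiquitous PBX gene, was the steadiest member, with a coefficient of variation of 2.37% over the 6 libraries, and *Pbx3*, a PBX gene with more restricted expression in the embryonic nervous system, had 18.8%. *Pbx2* (ENSMUSG00000034673, chr17:34591266-34597400, plus strand) had 66.7, 69.8 and 68.8 CPM in the controls and 70.9, 70.4 and 71.2 CPM in the overexpression libraries. Every overexpression library was above every control, but by little, with means of 68.4 ± 1.55 and 70.8 ± 0.399 CPM (SD, n = 3 each). The difference was 3.49%, and limma gave a log2 fold change of 0.0493 (SE 0.0493, 95% interval -0.06 to 0.16, adjusted p = 0.831). Without control replicate 1 it was 0.0314.

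*Pbx3* had the largest fold change of the 9 genes and did not pass the test. *Pbx3* (ENSMUSG00000038718, chr2:34171457-34373142, minus strand) had 134.4, 89.0 and 112.0 CPM in the controls and 119.8, 129.4 and 158.4 CPM in the overexpression libraries. The highest control, replicate 1, was above overexpression replicates 1 and 2, so the groups overlapped. The means were 112 ± 22.7 and 136 ± 20.1 CPM (SD, n = 3 each), 21.6% higher. The limma log2 fold change was 0.29 (SE 0.15, 95% interval -0.07 to 0.65, adjusted p = 0.788). Single libraries moved this value: it was 0.43 without control replicate 1, 0.14 without control replicate 2 and 0.18 without overexpression replicate 3.

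The TGIF genes were the only members lower by value in the overexpression group. *Tgif2* (ENSMUSG00000062175, chr2:156840007-156855570, plus strand) had 61.1, 78.0 and 66.6 CPM in the controls and 59.97, 56.6 and 60.5 CPM in the overexpression libraries. All 3 overexpression libraries were below all 3 controls, with control replicate 2 standing highest and control replicate 1 near the overexpression libraries. The means of 68.5 ± 8.60 and 59.0 ± 2.08 CPM (SD, n = 3 each) differed by -13.9%, and the limma log2 fold change of -0.21 (SE 0.09) had a p of 0.0496 before and 0.788 after adjustment. Without control replicate 2 the log2 fold change was -0.11.

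*Tgif1* was the least abundant member, with 76 to 127 reads in a library. *Tgif1* (ENSMUSG00000047407, chr17:70844205-70853546, minus strand) had 3.81, 4.23 and 5.64 CPM in the controls and 4.06, 4.35 and 4.03 CPM in the overexpression libraries. Control replicate 3 was the highest and control replicate 1 the lowest, so the overexpression libraries lay within the control range. The limma log2 fold change was -0.11 (SE 0.16, 95% interval -0.48 to 0.27, adjusted p = 0.884), and it was 0.0406 without control replicate 3.

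**Figure D3:**
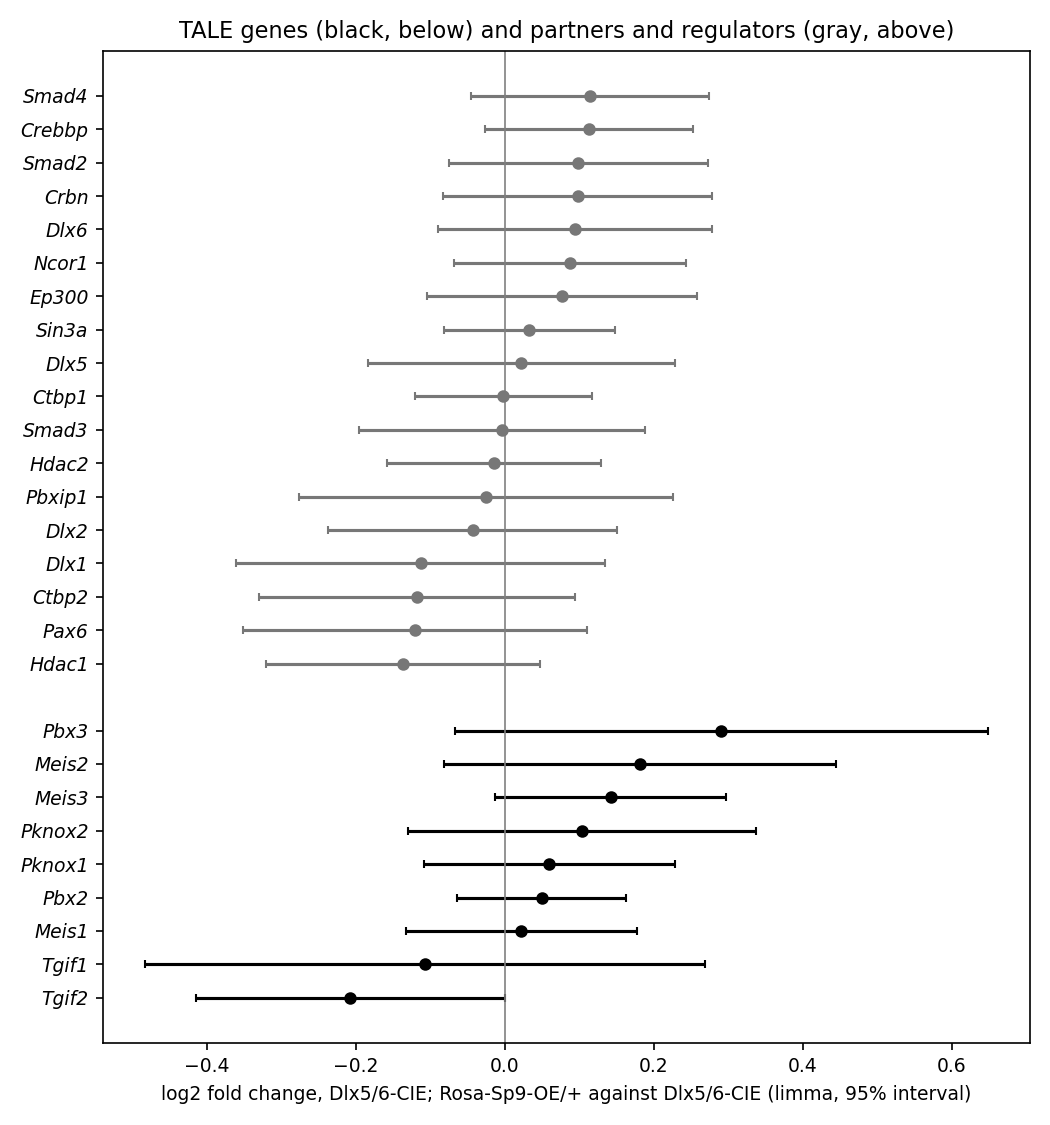
Log2 fold change of each gene, *Dlx5/6-CIE; Rosa-Sp9-OE/+* against *Dlx5/6-CIE*, from limma with its 95% interval, for the 9 TALE genes (black) and 18 genes for partners and regulators of TALE factors (gray). The TALE genes run from -0.21 for *Tgif2* to 0.29 for *Pbx3*, and none of the 27 genes passed an adjusted p of 0.05.

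The variation within a group followed single libraries shared by several members. Overexpression replicate 3 was the highest library for 7 of the 9 genes, all but *Tgif1* and *Tgif2*, and for 26.5% of all genes. The highest value lay in any overexpression library for the same 7 genes and for 44.7% of all genes. On the log2 scale, centred on the mean of the 6 libraries, it stood at 0.38 for *Pbx3*, 0.35 for *Meis2*, 0.25 for *Pknox2* and 0.18 for *Meis3*. In control replicate 2, *Pbx3* stood at -0.45 and *Meis2* at -0.22, while *Tgif2* stood at 0.30. *Pbx3* and *Meis2* were thus lowest in the library in which *Tgif2* was highest.

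Summed markers of MSNs, radial glia and microglia also had their lowest and highest values in control replicate 2 and overexpression replicate 3. This was not particular to them. Oligodendrocyte precursor markers were highest in control replicate 2 (105 CPM) and lowest in overexpression replicate 3 (75.8 CPM). Sums for MGE (medial ganglionic eminence) interneurons and for endothelial and mural cells were lowest in overexpression replicate 3, and that for red blood cells was highest there. The sum for dorsal LGE and olfactory bulb interneurons was lowest in control replicate 2. Sums for pyramidal neurons, amygdala neurons, cycling progenitors and intermediate progenitors had neither extreme in these libraries. The summed level of 10 markers of MSNs of both types was 1875 to 2315 CPM in the controls, lowest in replicate 2. In the overexpression libraries it was 2186 to 2754 CPM, highest in replicate 3. The abundant *Bcl11b*, *Gad2* and *Foxp1* weigh most in this sum. By value 8 of the 10 were higher in the overexpression group and 2 lower, *Rgs9* and *Ikzf1*, beside 50.2% higher of all genes. *Gad1* was lowest in control replicate 3 (203.4 CPM), and *Ppp1r1b* and *Rarb* were highest in control replicate 1. The 9 D2-MSN markers summed to 734 to 878 CPM in the controls and 1022 to 1433 CPM in the overexpression libraries. The summed level of 8 radial glia markers was 2243 to 2695 CPM in the controls, highest in replicate 2. In the overexpression libraries it was 2080 to 2383 CPM, lowest in replicate 3. Of the 8, *Sox2* and *Hes1* were higher by value in the overexpression group and 6 were lower. *Sox2* (237.7 CPM) and *Nes* (472.9 CPM) were highest in control replicate 3. The 6 microglia markers summed to 238 to 317 CPM in the controls and 68.5 to 263 CPM in the overexpression libraries, again lowest in overexpression replicate 3. Markers of pyramidal neurons, 8 genes, summed to 18.5 to 110 CPM and 39.7 to 54.3 CPM, highest in control replicate 1 and lowest in control replicate 3. The sums of 6 cycling and of 6 intermediate progenitor markers were lowest in control replicate 1 (1472 and 299 CPM). Both were highest in control replicate 3 (1978 and 411 CPM). The sum of 10 pre-D1-MSN and D1-MSN markers was lowest in control replicate 2 (567 CPM) and highest in overexpression replicate 3 (761 CPM). Their centred mean log2 level was instead highest in control replicate 1 (0.44) and lowest in overexpression replicate 1 (-0.19). In each of these lists 0 genes were at 0 in all libraries. The part of these cells in the levels of the TALE genes was not tested.

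**Figure D4:**
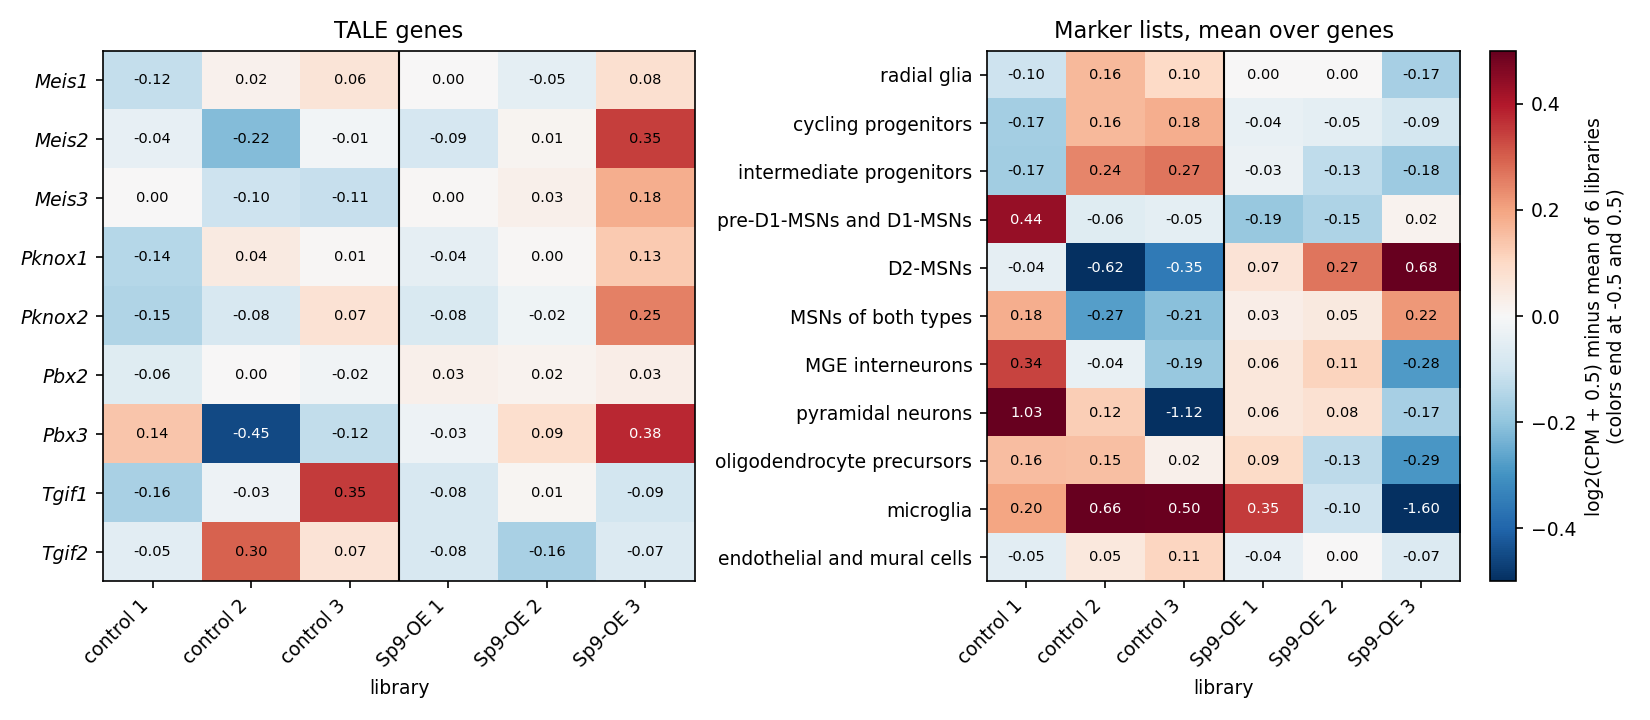
Level of each TALE gene (left panel) and mean level of each marker list (right panel) in the 6 libraries, as log2(CPM + 0.5) minus the mean of the 6 libraries, with colors ending at -0.5 and 0.5. *Pbx3* and *Meis2* are lowest in control replicate 2 (-0.45 and -0.22) and highest in overexpression replicate 3 (0.38 and 0.35).

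The genes whose centred log2 profiles over the 6 libraries were nearest to those of *Meis1*, *Meis2* and *Pbx3* were searched among 9687 genes. These had a mean of at least 10 CPM, and predicted genes, Riken and clone-named entries and pseudogenes were left out. The distance was the root mean square difference of the profiles, given here as a description. Nearest to *Meis2* were *Mir124-2hg* (0.0207), the host gene of a neuronal miRNA, *Scrt1* (0.0314), a neuronal zinc finger repressor, and *Unc79* (0.0348), a component of the NALCN sodium leak channel complex, where the *Meis2* profile itself had a root mean square of 0.171. *Mir124-2hg* had 78.4, 70.9 and 81.8 CPM in the controls and 74.9, 82.4 and 102.2 CPM in the overexpression libraries, low in control replicate 2 and high in overexpression replicate 3 as *Meis2* was. Nearest to *Pbx3* (0.255) were *Tle4* (0.0229), a Groucho family corepressor, *Csrnp3* (0.0278) and *Paqr3* (0.0463). *Tle4* had 95.6, 64.0 and 77.7 CPM in the controls and 85.3, 92.7 and 116 CPM in the overexpression libraries. The profile of *Meis1* was nearly flat (0.0671), and *Wdr20* (0.0081), *Mrpl49* (0.0102) and *Bsdc1* (0.0107) lay nearest to it.

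Of 8 other TALE class genes on a second list, 2 were in the table, and both were at low levels. *Irx1*, an Iroquois gene, had 1.04 ± 0.408 CPM in the controls and 0.794 ± 0.219 CPM with overexpression (n = 3 each, SD, limma adjusted p = 0.851). *Pbx4* had 6.36 ± 1.32 and 5.30 ± 1.77 CPM (n = 3 each, SD, limma adjusted p = 0.820). Both overlapped between the groups, and the other 6 genes of the list were not analysed here.

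No gene on a list of partners and regulators of TALE factors passed the test, as few genes of the whole table did. Of 18 listed genes, all in the table, limma called 0 (0.0265% of all genes), 0 passed an unadjusted p of 0.05 (5.52% of all genes), 9 were higher and 9 lower by value (50.2% of all genes were higher), and the median log2 fold change was 0.01. edgeR and DESeq2 also called 0 of them (0.0331% and 0.225% of all genes). *Dlx1* and *Dlx2*, whose products share enhancers with MEIS2, had means of 820 and 757 CPM and of 346 and 334 CPM in the control and overexpression groups. The 6 corepressor genes *Hdac1*, *Hdac2*, *Sin3a*, *Ncor1*, *Ctbp1* and *Ctbp2* had log2 fold changes on both sides of 0, from -0.14 (*Hdac1*) to 0.0878 (*Ncor1*). *Smad2*, *Smad3* and *Smad4*, for SMAD proteins of the TGF-beta pathway, ran from -0.0038 (*Smad3*) to 0.11 (*Smad4*). Beside 11.2% of all genes, the groups did not overlap for 1 of the 18, *Crebbp*, a histone acetyltransferase gene, with 155 ± 6.89 and 167 ± 9.51 CPM (n = 3 each, SD, limma adjusted p = 0.788).

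Because the only library with low *Xist* among the controls was replicate 3, each member was also set against that library alone. The mean log2 level of the overexpression libraries minus that of control replicate 3 was 0.27 for *Pbx3*, 0.18 for *Meis3*, 0.10 for *Meis2* and 0.0411 for *Pbx2*. It was -0.17 for *Tgif2* and -0.40 for *Tgif1*, and between -0.0519 and 0.0237 for *Meis1*, *Pknox1* and *Pknox2*. With 1 control library the spread comes from the overexpression libraries alone, and limma called 0 of the 9 genes in that fit and in the fit with *Xist* level as a covariate. *Meis1* and *Pknox2* were lower by value in both of those fits.

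**Figure D5:**
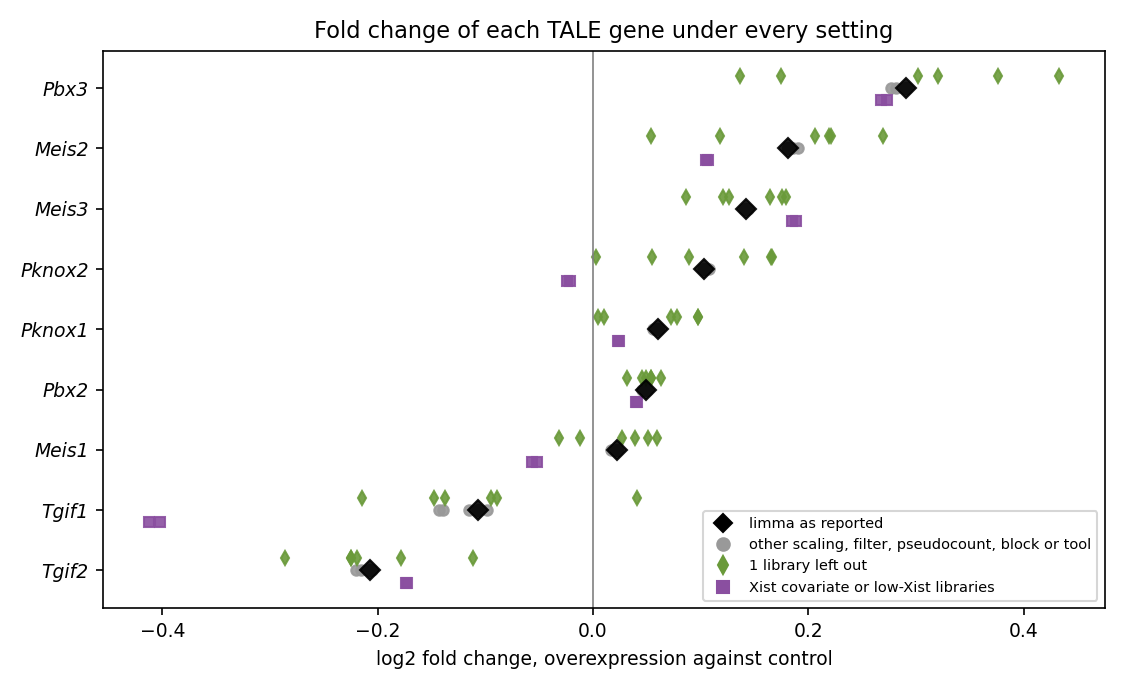
Log2 fold change of each TALE gene under every setting, with the reported limma value as a black diamond and the alternatives by kind (other scaling, filter, pseudocount, block or tool, 1 library left out, and *Xist* covariate or low-*Xist* libraries). *Meis2*, *Meis3*, *Pbx2*, *Pbx3* and *Pknox1* stay above 0 and *Tgif2* stays below 0 in all of the settings, while *Meis1*, *Pknox2* and *Tgif1* cross 0.

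Promoter windows of 250 bases before a RefSeq start (GRCm38.p6) were found for 6 of the 9 genes, 10 windows in all. Most of these windows overlap annotated exons. The *Meis2*, *Meis3* and *Pbx2* windows lie inside the GENCODE spans given above. So do the *Tgif1* windows other than chr17:70853533-70853782, among them those with a GC box. The windows inside these spans are not sequence upstream of those genes. A GC box (GGGCGG, on either strand), the kind of motif that SP family factors can bind, was in 32.7% of all 32851 windows of this length. It was found 4 times in the *Tgif2* window, 2 times in the *Pbx2* window and in 2 of the 5 *Tgif1* windows, and in none of the windows of *Meis1*, *Meis2* and *Meis3*. TGACAG, the core bound by MEIS and TGIF factors, was in 15.9% of all windows and in 0 of the 10. These are matches of letters in short windows, not measured binding.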

How the data were processed

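Total RNA libraries (stranded kit with rRNA removal) were made from E16.5 LGE. The authors deposited CPM per gene for 6 libraries. The labels name the mm10 build, and no source used here names the aligner or counter. The log2 fold changes, mean log2 CPM and p-values of a comparison made by the authors are also deposited and were not used. All deposited CPM values were whole multiples of the value of 1 read within 0.0015 CPM, so reads were recovered (19410365 to 25126847 per library). CPM of at least 0.5 in at least 3 libraries kept 15102 of 15168 genes. Differences were tested two-sided on log2(CPM + 0.5) with limma 3.58.1 (trend), without a block, with Benjamini-Hochberg adjustment over all kept genes at 0.05. This scale understates fold changes of low genes. edgeR 4.0.16 (quasi-likelihood) and DESeq2 1.42.0 on recovered reads were alternatives, as were other scaling, filters, pseudocounts, a replicate block, *Xist* as covariate and leaving out each library. All members were named. Likeness named 3 genes each for *Meis1*, *Meis2* and *Pbx3*. Members were taken by name, and they and the gene lists were chosen with earlier results of these data known. The fits were tested on simulated data. Sequences and exons came from GENCODE M21, and promoter windows from RefSeq.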

Additional observations from a re-analysis of the deposited data

How the results depend on the processing

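No TALE gene was called under any of the 16 alternatives, and 137 of the 144 recomputed fold changes kept their direction. The other 7 were of small size: with the *Xist* covariate *Meis1* was at -0.0563 and *Pknox2* at -0.0241, over the 4 low-*Xist* libraries they were at -0.0519 and -0.0218, and with 1 library left out *Meis1* ranged from -0.0314 to 0.0594 and *Tgif1* from -0.21 to 0.0406 (log2). Over all genes limma called 4, DESeq2 on recovered reads called 34, and leaving out 1 library gave 3 to 15 (15 without control replicate 1 and 11 without control replicate 3). The cause of these shifts was not tested. Between the groups, the correlation of deviations was -0.10, 0.20 and 0.08 for libraries of the same number, 1 to 3. It was -0.26 to 0.15 for libraries of unlike number. With 3 libraries per group, whose deviations sum to 0, these values cannot decide whether replicate numbers paired the libraries. The fit with a replicate block called 0 TALE genes and 3 genes in all. With 3 libraries per group, differences within the intervals given could not be resolved, and *Tgif1*, at 76 to 127 reads, also carries the largest counting error. The imbalance of sex and the 2 groups can be told apart only through control replicate 3.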
